A study of Mus musculus with 67 samples.

Results

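The genes described here are 46 interferon-stimulated genes, read in T cells sorted from the mouse brain. They were picked by symbol as known interferon targets, with earlier results of these data known. The tables of the larger experiment held all 46 among their 24530 genes. Of the 46, 36 are mostly driven by type I interferon and act inside the cell against viral RNA and proteins. The other 10 are GTPases of the Gbp and Irg families, which take part in defence against intracellular microbes. Type I interferons signal through the receptor chains IFNAR1 and IFNAR2 to a complex holding STAT2 and IRF9, which binds a promoter element called the ISRE. Interferon gamma, which activated T cells make themselves, signals through IFNGR1 and IFNGR2 to a different element, GAS, while SOCS1 and SOCS3 damp signalling and USP18 silences the type I receptor.

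The larger experiment held 59 libraries of CD4 T cells from Foxp3 reporter mice, in 16 groups of 2 to 4 libraries that crossed tissue, cell type, strain and diet. The tissues were the hypothalamus and the remaining brain (rest brain), and the cells were activated conventional T cells (Tconv; CD25 negative, Foxp3 negative, CD44 high, CD62L low) or Foxp3-positive regulatory T cells (Tregs), each library holding pooled cells of several mice. Mice were Balb/c females or C57Bl/6J males on a standard diet (SD) or a high-fat, high-sugar diet (HFHS) begun in young mice, so strain and sex cannot be told apart, and the labels do not give the length of feeding. A pilot held 8 single libraries of hypothalamic T cells from female pools: ob/ob mice, which lack leptin, against C57Bl/6J wild type (7 mice each), and Balb/c reporter mice on either diet for 16 weeks (9 mice each).

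The sorted cells carried the transcripts that their labels call for, with a few exceptions. Summed over 7 T-cell genes, libraries of Tconv from rest brain held 7620 to 9808 counts scaled to library size (CPM; median 8667), Tregs from rest brain 7316 to 11193 (median 9254) and Tconv from the hypothalamus 7752 to 9710 (median 9074). The 4 Treg genes (Foxp3, Il2ra, Ikzf2 and Ctla4) summed to 1628 to 3231 CPM in rest-brain Tregs against 128 to 305 in rest-brain Tconv, and Ctla4 was the most abundant of them. Hypothalamic Tregs were less even: their T-cell sum ran from 199 to 10375 CPM (median 8733) and their Treg sum from 35.1 to 3211 (median 1632).

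A pair of hypothalamic Treg libraries stood apart by marker genes of other cells. The C57Bl/6J SD library of pool 11_15 held the lowest T-cell and Treg sums (199 and 35.1 CPM) together with 3538 CPM of endothelial and 2485 CPM of macrophage genes. The Balb/c SD library of pool 32_36 held 20488 CPM of microglial genes, against a median of 222 in its set. Results that use hypothalamic Tregs are therefore given with and without this pair where a count differs. In rest brain, the Balb/c SD pool 42_46 carried more microglial RNA than the other Tconv libraries (667 CPM against a median of 94.4), and leaving it out kept the strain count given below at 18.

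The sets differed in how many of the genes were read at all. Of the values of the 46 genes, 29.6% were 0 in hypothalamic Tregs, 11.2% in rest-brain Tregs, 2.72% in hypothalamic Tconv and 1.67% in rest-brain Tconv. Only 5 of the genes were read in every hypothalamic Treg library, against 42 in every library of either Tconv set, and Oasl1 was the 1 gene absent from a whole set, the hypothalamic Tregs. The spread inside a group followed the same order, with a median standard deviation over the genes of 3.69 on the log2 scale in hypothalamic Tregs, 2.06 in rest-brain Tregs, 0.68 in hypothalamic Tconv and 0.46 in rest-brain Tconv. Differences involving hypothalamic Tregs are thus the least well measured, and since these are bulk libraries, fewer expressing cells and less RNA per cell cannot be told apart anywhere below.

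**Figure D1:**
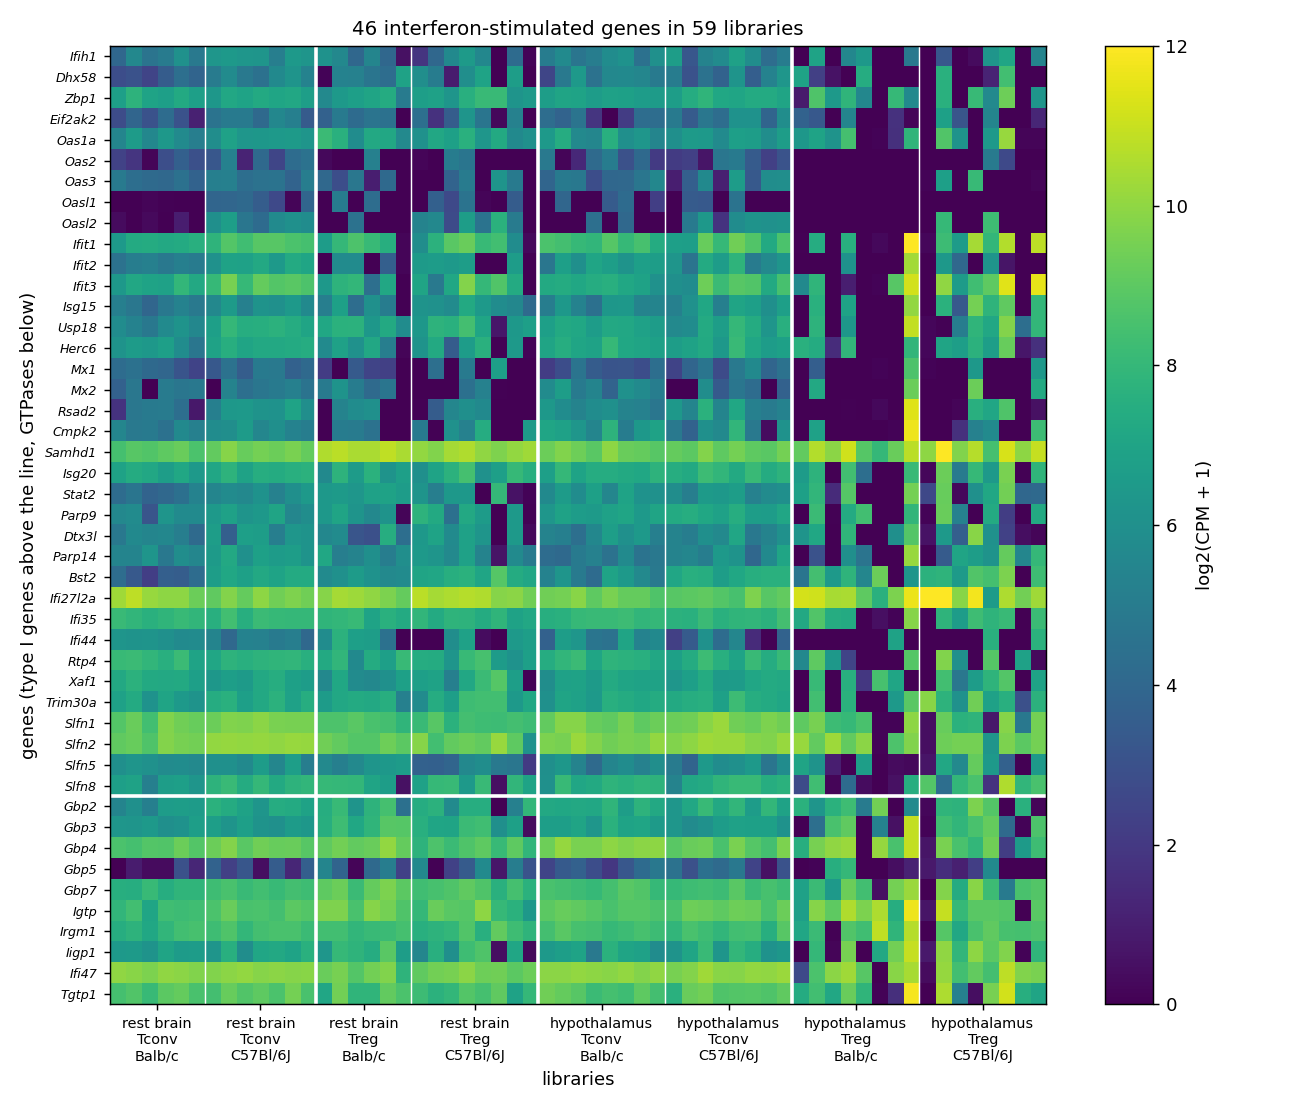
Level of each of the 46 interferon-stimulated genes in each of the 59 libraries, as log2(CPM + 1), with libraries grouped by tissue, cell type, strain and diet. Genes of the type I set lie above the white line and the GTPases below it.

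Transcripts from this list of interferon-stimulated genes were read in every group, though not every gene was, with Ifi27l2a by far the most abundant by mean. Whether interferon induced them was not tested. Corrected for transcript length as well as library size (TPM), the highest mean over the 59 libraries was that of Ifi27l2a, a small mitochondrial membrane protein, at 4912 TPM. The vacuole-attacking GTPase Ifi47 came next at 628 TPM by this mean, followed by Slfn2 at 607 TPM and Slfn1 at 375, a pair of Schlafen proteins that restrain T-cell division. The GTPase Igtp (371 TPM), the virus-tethering protein Bst2 (312), the nucleotide hydrolase Samhd1 (309), the exonuclease Isg20 (277), the RNA-binding Ifit3 (242) and the adaptor Ifi35 (227) completed the 10 highest. This order pools sets of unlike levels: Slfn2 exceeded Ifi47 by median in rest-brain Tconv (791 against 653 TPM), and the median of Ifit3 was at most 180.4 TPM in any set, its mean being raised by hypothalamic Treg values of up to 2082. At the other end were a pair of the oligoadenylate synthetase family, Oas2 at 2.53 TPM and Oasl1 at 2.90.

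Ifi27l2a alone supplied a median of 55.9% of the summed TPM of the 46 genes in hypothalamic Tregs (6.83 to 93.7%). Its share was 50.2% in rest-brain Tregs (39.8 to 65.1%), 41% in rest-brain Tconv (32.5 to 64.4%) and 32.2% in hypothalamic Tconv (19.1 to 42.1%). A sum of these transcripts would weigh this 1 gene heavily, so a mean of logs was used to give each gene the same weight. That score, the mean log2(CPM + 1), had a median of 6.28 for the 36 type I genes in rest-brain Tconv (5.18 to 6.90), 6.08 in hypothalamic Tconv (5.53 to 7.15), 5.52 in rest-brain Tregs (3.38 to 7.12) and 4.48 in hypothalamic Tregs (0.97 to 6.96). For the 10 GTPases the medians were 7.52, 7.77, 7.45 and 6.72 in the same order, with hypothalamic Tregs again the widest, from 0.37 to 9.43.

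**Figure D2:**
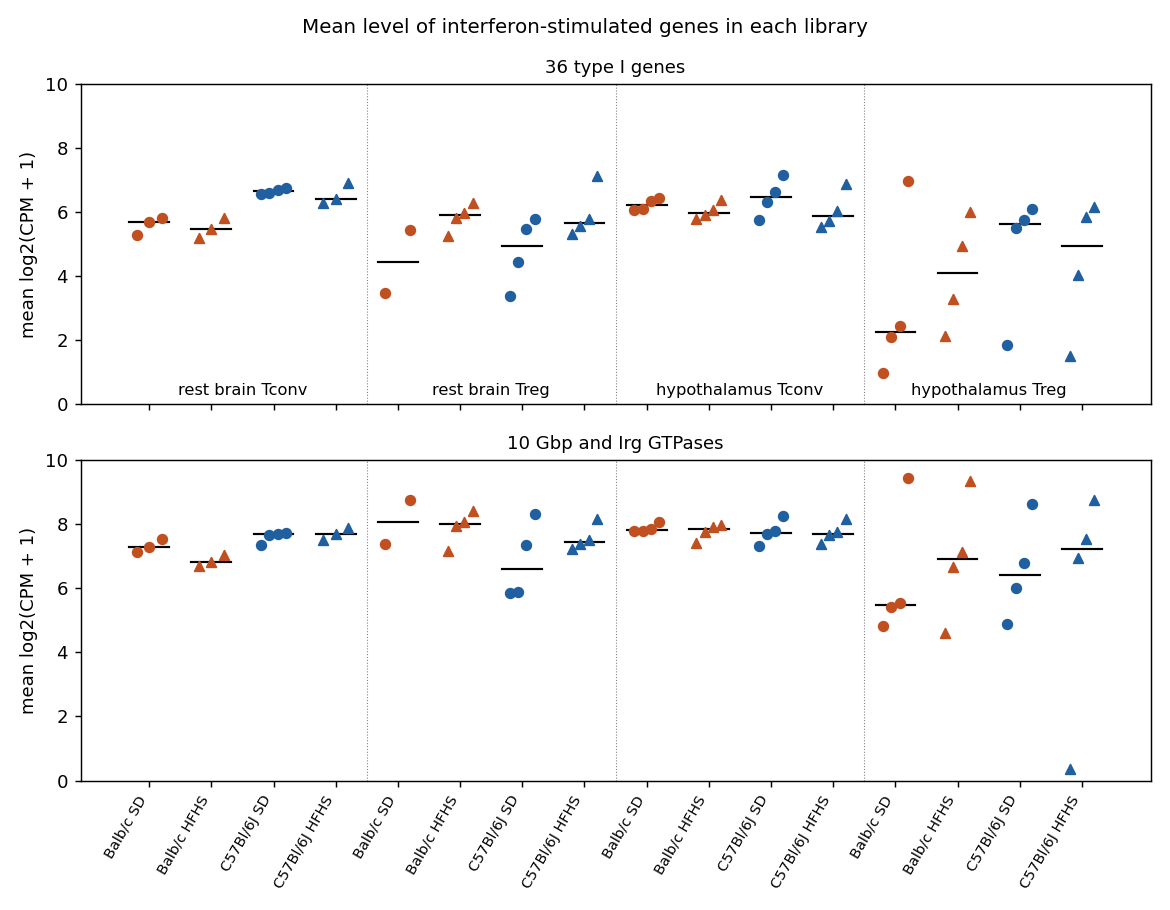
Mean log2(CPM + 1) of the 36 type I genes (top) and the 10 GTPases (bottom) in each library, by tissue and cell type. Circles are SD and triangles HFHS libraries, orange is Balb/c and blue C57Bl/6J, and black lines are group medians.

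Strain in rest-brain Tconv gave the largest number of called genes. Most of the genes called there were lower in activated Tconv of Balb/c than of C57Bl/6J mice. The type I score ran from 5.18 to 5.82 in the 6 Balb/c libraries and from 6.28 to 6.90 in the 7 C57Bl/6J libraries, so no library of either strain reached the range of the other. The GTPase score was 6.69 to 7.52 against 7.36 to 7.88 and overlapped; scores were not tested, nor were the classes compared with each other. By edgeR's quasi-likelihood test with Benjamini-Hochberg adjustment, 18 of the 46 genes differed between strains, where 23.5% of all genes tested did. Of these, 15 were lower and 3 higher in Balb/c, whereas of all genes 11.3% were lower and 12.2% higher, and the median log2 fold change was -0.39 over the 46 against -0.03 over all genes. DESeq2 called 20 (30.3% of all genes), adding Herc6 and Eif2ak2, and edgeR's calls split into 14 lower and 3 higher of 36 type I genes and 1 lower of 10 GTPases. Since Balb/c mice were female and C57Bl/6J mice male, sex may stand behind any of these differences. The libraries also differed in make-up: the 10 most abundant genes held 11.9 to 16.3% of counts in Balb/c and 7.47 to 9.34% in C57Bl/6J. The bearing of this on the calls was not tested.

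Among genes that sense or bind viral RNA, Dhx58, a regulator of the RIG-I-like sensors, held 4.43, 8.69 and 19.7 CPM (lowest, median, highest) in Balb/c against 21.2, 39.3 and 74.2 in C57Bl/6J. Every Balb/c library lay below every C57Bl/6J library, and the log2 fold change was -1.87 (standard error 0.37; edgeR adjusted p 0.00123). Oasl2, an OAS-like protein that promotes RNA sensing, was all but missing from Balb/c, at 0 in 3 of the 6 libraries and at most 0.934 CPM, against 17.3 to 103 CPM in C57Bl/6J. Its log2 fold change of -7.45 (standard error 0.87; edgeR adjusted p 1.69e-05; 6 of 6 libraries lower) rests on few Balb/c counts and ran from -8.89 to -7.18 over refits that each left out 1 library. The related Oasl1, which limits interferon production by blocking Irf7 translation, had 3 counts over all Balb/c libraries and 1665 over those of C57Bl/6J. That is a ratio of 0.00259 with a 95% counting interval of 0.000534 to 0.00758 (edgeR adjusted p 0.000272), and 4 of the 6 Balb/c libraries had none, while the lowest C57Bl/6J library held 0.113 CPM. Intervals and floors of this kind cover counting error only.

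Ifit1, Ifit2 and Ifit3 encode proteins that bind foreign RNA and stall its translation, and their transcripts were lower in Balb/c. Ifit1 held 89.1, 160.3 and 191 CPM against 225, 384 and 476, with all 6 Balb/c libraries below all 7 of C57Bl/6J (log2 -1.02, standard error 0.20, edgeR adjusted p 0.00111). Ifit2 was at 21.8, 32.2 and 36.4 CPM against 66.3, 118 and 159, and Ifit3 at 84.2, 135 and 246 against 264, 437 and 733, each again without overlap. Their log2 fold changes were -1.65 and -1.38 (edgeR adjusted p 0.000131 and 0.000767; 6 of 6 libraries lower for each), with the caveat that Ifit3 has a near-identical neighbour, Ifit3b, to which reads may be misassigned.

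Of the ISG15 genes, Isg15 and Usp18 were called by edgeR and the ligase Herc6 was not. Isg15, the ubiquitin-like modifier itself, held 14.4, 27.3 and 38.3 CPM in Balb/c against 36.3, 63.9 and 90.6, with overlap at the edges (log2 -0.92, standard error 0.28, edgeR adjusted p 0.0239). Its call held in 11 of 13 refits that left out 1 library. Usp18, which strips ISG15 from proteins and silences the type I receptor, ran at 27.4, 49.7 and 69.8 CPM against 108, 176 and 250, without overlap (log2 -1.58, standard error 0.23, edgeR adjusted p 0.000102; 6 of 6 lower). Rsad2 (viperin), which makes a chain-terminating nucleotide, had 0.705, 22.5 and 30.8 CPM against 34.7, 71 and 123. All 6 Balb/c libraries lay below all 7 of C57Bl/6J (log2 -1.75, standard error 0.61), yet the edgeR adjusted p was 0.0456 and the call held in only 5 of 13 refits that each left out 1 library.

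Among signalling proteins, Stat2, a transcription factor of type I signalling, held 13.2, 19.4 and 38.4 CPM in Balb/c against 37.7, 54.3 and 88.9. The highest Balb/c library just reached the lowest of C57Bl/6J, and the log2 fold change was -1.12 (standard error 0.29; edgeR adjusted p 0.00801; 5 of 6 libraries below the whole C57Bl/6J range). Parp14, an ADP-ribosyltransferase, was at 27.0, 43 and 74.5 CPM against 64.1, 94.9 and 148 (log2 -0.78, edgeR adjusted p 0.0405), a call kept in 5 of 13 refits. Bst2 (tetherin), which holds budding virions to the membrane, gave the smallest p of the 46: 3.61, 11 and 18.5 CPM against 101, 143 and 162. The ranges were far apart, with a log2 fold change of -3.26 (standard error 0.30; edgeR adjusted p 1.42e-06; 6 of 6 libraries lower).

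Of the 4 Schlafen genes, Slfn2 and Slfn8 were called lower in Balb/c, and Slfn1 and Slfn5 were not called. Slfn2 ran at 408, 641 and 866 CPM against 1036, 1096 and 1138 (log2 -0.50, standard error 0.12, edgeR adjusted p 0.00555), and Slfn8 at 35.3, 105 and 118 against 155, 214 and 281 (log2 -0.98, standard error 0.24, edgeR adjusted p 0.00584). Neither overlapped between strains, although Slfn8 has close paralogs. Of the GTPases only Gbp2 was called, at 34.9, 80.1 and 103 CPM against 74.6, 160.2 and 205 (log2 -0.79, standard error 0.25, edgeR adjusted p 0.0269), and its call held in 8 of 13 refits.

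A trio of genes ran the other way, so the strain difference was no uniform dimming. Ifi44, a cytoplasmic protein with antiproliferative activity, was at 52.1, 67 and 76.5 CPM in Balb/c and 15.9, 33.6 and 42.1 in C57Bl/6J, with every Balb/c library above every C57Bl/6J library (log2 1.35, standard error 0.27, edgeR adjusted p 0.00134). Ifi27l2a held 626, 1068 and 1780 CPM against 534, 679 and 995, and 5 of 6 Balb/c libraries lay above the C57Bl/6J median (log2 0.86, standard error 0.24, edgeR adjusted p 0.0137). Xaf1, a promoter of cell death, was at 108, 153 and 211 CPM against 80.6, 106 and 174 (log2 0.72, standard error 0.24, edgeR adjusted p 0.0354), with 6 of 6 above the C57Bl/6J median and a call kept in 5 of 13 refits.

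Many genes of the interferon pathway also differed between strains in rest-brain Tconv. Of 36 genes listed for interferons, receptors, signalling, inhibition and sensing, 26 were tested and 14 called, 13 lower and 1 higher in Balb/c, where 23.5% of all genes were called. Irf7, which amplifies type I interferon production, ran from 53.1 to 146 CPM in Balb/c and 198 to 368 in C57Bl/6J, without overlap (log2 -1.09, edgeR adjusted p 0.000618, 6 of 6 lower), and the receptor chain Ifnar1 had a median of 28.5 CPM against 121 (log2 -1.47, edgeR adjusted p 0.000639). Irf9 and Ifngr1 were lower too (log2 -1.05 and -0.73; edgeR adjusted p 0.00661 and 0.00234), whereas Ifnar2, Ifngr2 and Ifng were not called (log2 -0.06, 1.01 and 0.69). Among Gbp paralogs outside the 46, Gbp2b was nearly private to Balb/c, at 36.8 to 117 CPM against at most 0.0803 (log2 11.37, edgeR adjusted p 4.51e-10). Reads of this near copy of Gbp2 may be misassigned between the pair.

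CD8 genes, which the CD4 gate should leave out, were read in the Tconv of each strain. In rest brain they summed to 276 to 479 CPM (median 348) in Balb/c and to 1.94 to 736 CPM (median 39.8) in C57Bl/6J, where pool 01_05 exceeded every Balb/c library. In the hypothalamus they summed to 183 to 619 CPM (median 290.4) in Balb/c and 8.69 to 614 CPM (median 145) in C57Bl/6J. Whether a different mix of T cells carries part of the strain difference was not tested.

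**Figure D3:**
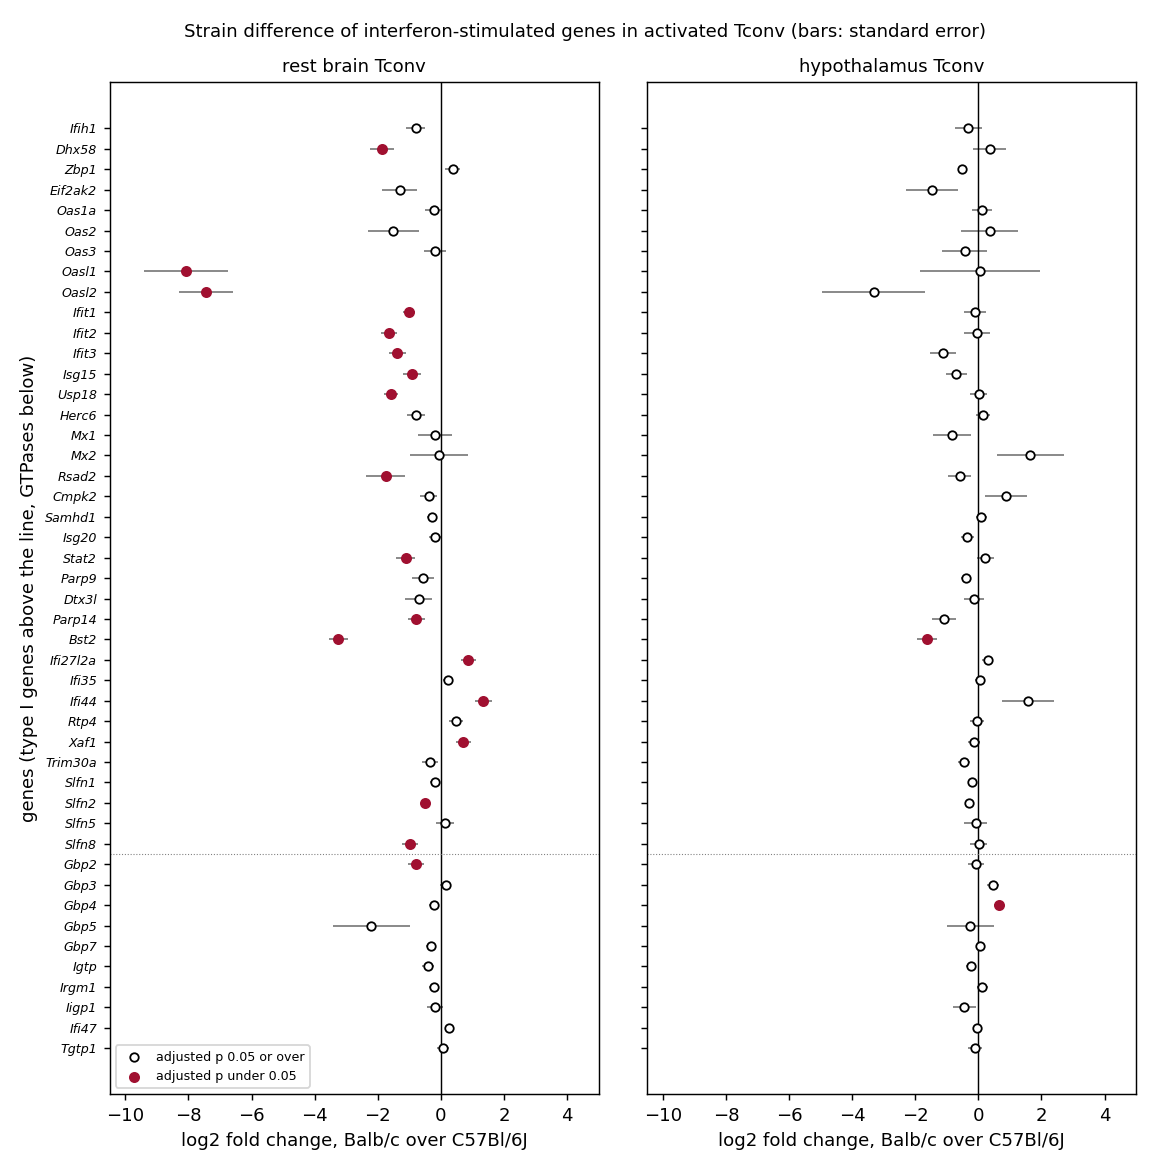
Log2 fold change of each gene in Balb/c over C57Bl/6J activated Tconv, with standard errors, in the rest brain and in the hypothalamus. Filled points have an edgeR adjusted p under 0.05.

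In the hypothalamus the scores of the same cell type overlapped between strains. Type I scores of Tconv there spanned 5.79 to 6.44 in 8 Balb/c libraries and 5.53 to 7.15 in 8 C57Bl/6J libraries, 1 range inside the other. edgeR called 2 of the 46 genes, 1 lower and 1 higher, where 2.1% of all genes tested were called (1.1% lower, 0.993% higher), and 10 of the 46 had an unadjusted p under 0.05, as had 9.89% of all genes. Bst2 remained lower, at 17.2, 44.0 and 125 CPM against 101, 180.3 and 197, with 8 of 8 Balb/c libraries below the C57Bl/6J median (log2 -1.63, standard error 0.31, edgeR adjusted p 0.00619). Gbp4, a guanylate-binding GTPase, was higher in Balb/c, at 658, 908 and 1103 CPM against 340, 551 and 783, with 8 of 8 above the C57Bl/6J median (log2 0.65, standard error 0.16). Its edgeR adjusted p of 0.0443 passed the threshold in only 4 of 16 refits that left out 1 library. Gbp2b was again nearly private to Balb/c, 59.6 to 205 CPM against at most 0.167 (log2 11.04, edgeR adjusted p 1.22e-10), while Irf7 was not called (log2 0.11).

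Whether the strain difference itself depended on the brain region was tested as an interaction chosen after these results were seen. edgeR called 8 of the 46 genes in Tconv, beside 10.4% of all genes tested, and DESeq2 called 8 (12.6%). Usp18 had medians of 130 CPM in Balb/c and 132 in C57Bl/6J in the hypothalamus against 49.7 and 176 in rest brain (interaction log2 1.60, edgeR adjusted p 0.0051). Stat2 stood at 67.4 and 60.5 CPM in the hypothalamus against 19.4 and 54.3 in rest brain (1.40, edgeR adjusted p 0.0185), so for this pair the Balb/c level alone was low in rest brain. Bst2 (1.65, edgeR adjusted p 0.0125) and Gbp4 (0.90, edgeR adjusted p 0.0106) also differed. Dhx58, Ifit2 and Oasl1 had interactions of 2.27, 1.64 and 8.21 (edgeR adjusted p 0.0262, 0.0327 and 0.0461), kept in 27, 23 and 10 of 29 refits. The Z-nucleic-acid sensor Zbp1 ran the other way (-0.84, edgeR adjusted p 0.0420), a call that ended with DESeq2 size factors and without the count filter, and held in 15 of 29 refits. In the pathway, Irf7 (1.22), Irf9 (1.39) and Ifnar1 (1.34) carried the same interaction. The share of counts in the 10 most abundant genes, higher in Balb/c in rest brain, overlapped between strains in the hypothalamus. There it was 8.54 to 9.92% in Balb/c and 6.04 to 9.48% in C57Bl/6J, and its bearing on the interaction was not tested.

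In Tregs edgeR called no strain difference in these genes. In rest brain, where 0.299% of all genes tested were called, edgeR called 0 of 46, with 5 at an unadjusted p under 0.05 (8.92% of all genes), and DESeq2 called 3 (2.59% of all genes). The smallest p belonged to Bst2, at 48.6, 59.5 and 94.9 CPM in 6 Balb/c libraries against 129, 150.2 and 460.5 in 8 of C57Bl/6J, without overlap (log2 -1.60, edgeR adjusted p 0.131). Gbp4 came next at 541, 590 and 1048 CPM against 214, 348 and 513, again without overlap (log2 0.91, edgeR adjusted p 0.143), and then Ifi27l2a (log2 -0.55, edgeR adjusted p 0.238, 6 of 6 Balb/c libraries below the C57Bl/6J median). These 3 are the ones that DESeq2 called, with log2 fold changes of -1.74, 0.79 and -0.69. In hypothalamic Tregs 41 of the genes passed the count filter, and edgeR called 0, where 0.0389% of all genes were called, with 0 at an unadjusted p under 0.05 (3.78% of all genes) and 0 called by DESeq2 (3.14% of all genes). The smallest p there belonged to Slfn8, Samhd1 and Ifit3 (log2 -2.82, -0.83 and -1.83, each with an edgeR adjusted p of 1).

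An interaction of strain with cell type in rest brain, also chosen after the fact, was called by edgeR for 3 of 46 genes beside 4.8% of all genes, and for 6 by DESeq2 (9.03%). Ifi27l2a was higher in Balb/c among Tconv, while among Tregs its log2 fold change of -0.55 was not called by edgeR (interaction log2 -1.33, edgeR adjusted p 0.0101). Gbp4 (1.11, edgeR adjusted p 0.0256) and Bst2 (1.69, edgeR adjusted p 0.0345) shifted upward in Balb/c Tregs relative to Tconv. The Bst2 term ended without the count filter and held in 19 of 27 refits that left out 1 library. That of Gbp4 held in 26 of 27, and the number of genes called ran from 1 to 5 over these refits. The type I genes as a whole were not tested for such an interaction.

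Tregs and activated Tconv of the rest brain differed in individual genes of the set. edgeR called 8 of 46, 4 higher and 4 lower in Tregs, where 15% of all genes tested were called (3.98% higher, 11% lower), so the share is near that of the genome and says nothing special of the set. DESeq2 called 9 (17.6% of all genes), and a fit that paired the cell types by pool called 4 (Samhd1, Slfn1, Ifi47 and Oas2, beside 12.2% of all genes). Over 27 edgeR refits that left out 1 library the count ran from 5 to 8. The median log2 fold change was -0.12 over the 46 and -0.26 over all genes. With DESeq2 size factors the median of all genes moved by 0.25 to -0.01, that of the 46 turned to 0.11, and the share of all genes higher in Tregs among those called went from 26.5% to 42.6%, so the list had no stable direction. The median was 0.43 over the 10 GTPases, 6 of them above 0, and -0.26 over the type I genes, and the classes were not tested against each other.

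Samhd1, which starves viruses of nucleotides, was the clearest Treg gene, at 832, 1372 and 1864 CPM in 14 Treg libraries against 354, 565 and 890 in 13 of Tconv. All 14 lay above the Tconv median (log2 1.07, standard error 0.14, edgeR adjusted p 2.09e-06). Slfn1 was the reverse, at 204, 342 and 480 CPM against 330, 735 and 979, with 14 of 14 below the Tconv median (log2 -1.11, standard error 0.15, edgeR adjusted p 4.54e-06). The vacuole GTPase Ifi47 held 219, 662 and 960 CPM against 803, 947 and 1058, with 13 of 14 below the Tconv median (log2 -0.67, standard error 0.15, edgeR adjusted p 0.0023), though its call ended with DESeq2 size factors.

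The remaining 5 calls were weaker, and each ended when the cell types were paired by pool. Bst2 was at 48.6, 130.4 and 460.5 CPM in Tregs against 3.61, 101 and 162, with 8 of 14 above the pooled Tconv median (log2 1.27, standard error 0.30, edgeR adjusted p 0.0035). All 6 Balb/c Treg libraries (48.6 to 94.9) lay above all 6 of Balb/c Tconv (3.61 to 18.5), while in C57Bl/6J the ranges overlapped (129 to 460.5 and 101 to 162). Gbp7 and Gbp3, GTPases that coat microbial vacuoles, were higher in Tregs (log2 0.57 and 1.23; edgeR adjusted p 0.0269 and 0.0409; 12 of 14 above for each), with medians of 414 against 275 CPM and 186 against 78.0. Slfn2 and Ifi35 were lower (log2 -0.68 and -0.47; edgeR adjusted p 0.0332 and 0.0425; 13 of 14 below for each), with medians of 553 against 1036 CPM and 203 against 250, and these calls ended with DESeq2 and with DESeq2 size factors as well. Over 27 refits that left out 1 library, Gbp7 kept its call in 23, Gbp3 in 15, Slfn2 in 15 and Ifi35 in 8, and that of Ifi35 also ended without the count filter.

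Of the pathway genes called between these cell types, Ifng differed most. Ifng, which encodes interferon gamma, was at 0, 16.3 and 173.5 CPM in rest-brain Tregs against 283, 529 and 1011 in Tconv, without overlap (log2 -4.14, standard error 0.88, edgeR adjusted p 0.00155). Its receptor chain Ifngr1 was higher in Tregs, with medians of 1636 and 1281 CPM (log2 0.59, edgeR adjusted p 0.00893). Of the transducers, Irf9 (log2 0.60) and Irf7 (-0.12) were not called, nor were Ifnar1 (0.49), Ifnar2 (-0.51) or Ifngr2 (1.10). In all, 7 of 26 pathway genes tested were called, 5 higher and 2 lower, beside 15% of all genes.

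Hypothalamic Tregs against hypothalamic Tconv, 16 libraries each, gave few calls by edgeR and more by some other fits. edgeR called 3 of 46, 2 higher and 1 lower, where 7.73% of all genes tested were called (0.541% higher, 7.19% lower). Scaling mattered: the median of all genes was -0.60 and moved by 0.86 with DESeq2 size factors, the share of calls that were higher went from 7.00% to 46.1%, and the median of the 46 went from 0.24 to 1.28. No direction is therefore given for the set as a whole. DESeq2 called 14 (17.5% of all genes), the fit paired by pool 14 (49.3% of all genes), DESeq2 size factors in edgeR 5 (12.2%), and edgeR without the pair of unusual libraries 4 (12%).

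Ifi27l2a was higher in hypothalamic Tregs, at 95.6, 1397 and 4198 CPM against 362, 548 and 921 in Tconv, with 13 of 16 libraries above the Tconv median (log2 1.42, standard error 0.32, edgeR adjusted p 0.00201). DESeq2 size factors put this log2 fold change at 3.24. Samhd1 held 256, 988 and 4045 CPM against 478, 596 and 1012, with 12 of 16 above (log2 0.97, standard error 0.27, edgeR adjusted p 0.0171). Its fold change became 2.38 with DESeq2 size factors, and its call ended in the fit paired by pool and without the count filter. Oasl1 was at 0 in all 16 Treg libraries, while 7 of 16 Tconv libraries read it (at most 23.1 CPM, 1597 counts in all, edgeR adjusted p 0.00176). It passed the count filter through the Tconv libraries alone. Against a floor of 3 counts over the pooled Treg libraries the difference is 505-fold. That value covers counting error only and not transcripts missed in sparse libraries, so it is no lower limit. Ifng spread over 0, 0.0707 and 355.9 CPM in Tregs against 251, 474 and 805 in Tconv, with 16 of 16 below the Tconv median, and was not called (log2 -2.99, edgeR adjusted p 0.107).

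The step from Tconv to Treg differed between regions for 2 of 46 genes, where 12.9% of all genes tested showed such an interaction by edgeR. For Ifi27l2a the step was 1.42 in the hypothalamus and 0.14, not called, in rest brain (interaction log2 1.48, standard error 0.41, edgeR adjusted p 0.0083). Oasl1 was the other (log2 -10.23, edgeR adjusted p 0.0012), a size set by the absence of counts in hypothalamic Tregs. DESeq2 called 2 as well (10.6% of all genes), and edgeR without the pair of unusual libraries 3 (12.2%), adding Oas2 at -6.68.

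Region changed a handful of genes within Tconv. edgeR called 7 of 46 between hypothalamus and rest brain, 5 higher and 2 lower in the hypothalamus, where 16.8% of all genes tested were called (5.66% higher, 11.2% lower), again a share near that of the genome. The median log2 fold change was 0.18 over the 46 and -0.09 over all genes. Of all genes called, 33.6% were higher in the hypothalamus, and 46% with DESeq2 size factors. DESeq2 called 11 (18.6% of all genes), and pairing the regions by pool left 2 calls, Parp9 and Ifi27l2a (1.22% of all genes).

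Ifi27l2a was lower in hypothalamic than in rest-brain Tconv, at 362, 548 and 921 CPM against 534, 861 and 1780, with 15 of 16 libraries below the rest-brain median (log2 -0.76, standard error 0.16, edgeR adjusted p 0.00111). Parp9, which with DTX3L marks chromatin and viral proteins, was higher at 77.7, 117 and 176 CPM against 7.88, 58.8 and 128, with 16 of 16 above (log2 0.82, standard error 0.20, edgeR adjusted p 0.00335). The other 5 calls ended when regions were paired. Igtp, an Irg GTPase, had 16 of 16 libraries above the rest-brain median (515 against 338 CPM; log2 0.46, edgeR adjusted p 0.00904), and Stat2 14 of 16 (64.1 against 38.4; log2 0.86, edgeR adjusted p 0.0121). For Stat2 this pools strains that differed, as its strain by region interaction was called (log2 1.40, edgeR adjusted p 0.0185) and its Balb/c level alone was low in rest brain. Gbp2 was above in 13 of 16 (148 against 103; log2 0.57, edgeR adjusted p 0.0413, kept in 10 of 29 refits) while Parp14 was below in 14 of 16 (35.2 against 70.1; log2 -0.85, edgeR adjusted p 0.0117). Bst2 (log2 1.09, edgeR adjusted p 0.00505) was above the pooled median in 9 of 16, with 17.2, 44.0 and 125 CPM against 3.61, 11 and 18.5 in Balb/c and 101, 180.3 and 197 against 101, 143 and 162 in C57Bl/6J. In the pathway 5 of 26 genes tested were called, near the 16.8% of all genes, all higher, among them the inhibitors Socs1 and Socs3 (log2 0.54 and 0.98), and Irf7, Irf9 and Ifng were not (log2 0.47, 0.61 and -0.25).

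Tregs of the hypothalamus differed from those of the rest brain in 1 of 46 genes by edgeR, where 4.93% of all genes tested were called (0.302% higher, 4.63% lower). Oasl1, at 0 in all 16 hypothalamic libraries, was read in 7 of 14 from rest brain (at most 31.5 CPM, 1971 counts in all, edgeR adjusted p 0.00956). Against a floor of 3 counts over the pooled hypothalamic libraries the difference is 734-fold, which covers counting error only. The hypothalamic libraries read a median of 5808.5 genes against 10112.5 in rest brain, so this value is no lower limit. Pairing by pool left 0 calls (0% of all genes), DESeq2 called 7 (11.7%), DESeq2 size factors in edgeR 2 (7.21%), and edgeR without the pair of unusual libraries 3 (9.11%; Oasl1, Oasl2 at log2 -5.69 and Ifi27l2a at 0.81). The median of all genes was -0.61 and moved by 0.67 with DESeq2 size factors, with the 46 at 0.22 and then 1.25. Of all genes called, 6.12% were higher in the hypothalamus, and 33.8% with those size factors.

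No diet effect on the 46 genes was called by edgeR with all libraries and the count filter, while other settings called a few. edgeR with that filter called 0 in each of 16 comparisons (both strains together, each strain alone, and strain by diet, in each cell type and region), and 0% of all genes in each but 1. Without the filter it called 1 for diet in rest-brain Tconv of Balb/c (1.2% of all genes). It likewise called 1 for strain by diet in rest-brain Tconv (1.37%) and 1 for diet in hypothalamic Tregs of Balb/c (0.205%). In Tconv from rest brain the genes at an unadjusted p under 0.05 were 0 of 46 with both strains, 4 of 44 in Balb/c and 1 of 46 in C57Bl/6J, and DESeq2 called 0, 1 and 0 (0.0977%, 5.19% and 0.21% of all genes). In Tconv from the hypothalamus they were 4 of 46, 3 of 45 and 0 of 45, with DESeq2 at 0, 0 and 0 (0.12%, 0.489% and 0.144%). In rest-brain Tregs they were 2 of 46, 4 of 44 and 1 of 43, with DESeq2 at 1, 5 and 0 (3.19%, 4.76% and 1.06%), and in hypothalamic Tregs 1 of 41, 0 of 31 and 1 of 36, with DESeq2 at 0, 0 and 0 (2.53%, 4.22% and 0.515%). The strain by diet term had 6 of 46 genes at an unadjusted p under 0.05 in rest-brain Tconv (edgeR 0, where 0.61% of all genes were called, 0.513% higher and 0.0977% lower; DESeq2 2, with 4.99% of all genes) and 1 of 46 in rest-brain Tregs (edgeR 0, DESeq2 4, with 5.06% of all genes). The same term had 0 of 46 in hypothalamic Tconv and 1 of 41 in hypothalamic Tregs (edgeR 0 and DESeq2 0 for both, with DESeq2 at 1.61% and 15.6% of all genes). Of all genes, the share at an unadjusted p under 0.05 for the strain by diet term was 12.8% and 5.65% in rest-brain Tconv and Tregs and 4.53% and 16.8% in those of the hypothalamus. For diet in both strains, Balb/c and C57Bl/6J it was 4.81%, 12.5% and 4.29% in rest-brain Tconv, 3.73%, 4.17% and 2.05% in hypothalamic Tconv, 7.28%, 5.16% and 2.65% in rest-brain Tregs and 2.76%, 4.35% and 1.25% in hypothalamic Tregs. With DESeq2 size factors the median of the 46 changed sign in rest-brain Tregs (0.22 to -0.01), in those of C57Bl/6J (0.22 to -0.14) and in hypothalamic Tregs of Balb/c (0.02 to -0.99), as the median of all genes moved by -0.21, -0.34 and -0.91.

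Ifi27l2a had some of the smallest p in these tests, none passing correction in edgeR with all libraries and the count filter. In rest-brain Tconv of Balb/c it held 1124, 1237 and 1780 CPM on HFHS against 626, 1005 and 1011 on SD, all 3 above all 3 (log2 0.85, edgeR adjusted p 0.137), and DESeq2 called it at 0.88. In rest-brain Tconv of C57Bl/6J it held 534, 575 and 861 CPM on HFHS against a median of 745 on SD, and the strain by diet term was not called (log2 1.25, edgeR adjusted p 0.0888). Rest-brain Tregs had 917 to 1320 CPM on HFHS against 567 and 800 in the pair of SD libraries in Balb/c, and 1342 to 1708 against 675 to 1536 in C57Bl/6J (both strains: log2 0.61, standard error 0.17, edgeR adjusted p 0.489). Hypothalamic Tregs had medians of 1843 CPM on HFHS and 657 on SD in Balb/c, and 3846 and 971 in C57Bl/6J, but ranges overlapped in each strain (both strains: log2 1.37, edgeR adjusted p 1). Hypothalamic Tconv showed little, with medians of 703 and 573 CPM in Balb/c and 488 and 517 in C57Bl/6J.

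The pilot gave 1 library per condition, so folds there carry counting error alone and no test was made. In hypothalamic CD4 T cells labelled CD44 negative, 34 of the 46 genes had enough reads and 22 differed at least 2-fold between diets, 19 higher on HFHS and 3 lower. Of all genes with enough reads, 61.9% differed by as much (24.8% higher, 37% lower). Among the genes with enough reads, the median fold was 2.31, against 0.844 over all genes. The T-cell genes also differed in sum between these libraries, 15313 CPM on HFHS and 6258 on SD, a gap carried by the Cd3 genes (Cd3d 6915 and 1433) while Cd4 was lower on HFHS (249 and 372), and the bearing of this on the folds was not tested. Isg20 had 424 counts on HFHS and 34 on SD, a normalized fold of 21.2 (95% interval 15 to 31.1), and Ifit1 334 and 78, a fold of 7.30 (5.69 to 9.46). Ifi27l2a had 2117 and 1378 counts, 2.62-fold. Against a floor of 3 counts, the antiviral synthetase Oas1a, with 81 counts and 0, was 46-fold higher (95% lower limit 36.6). The nucleotide kinase Cmpk2, with 0 and 104, was 20.3-fold lower against that floor (95% upper limit of the ratio 0.0615). The RNA sensor Ifih1, with 3 counts and 108, had a ratio of 0.0473 (0.00961 to 0.142). These cells were sorted differently from the activated Tconv of the larger experiment.

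In pilot Tregs 30 of the genes had enough reads and 23 differed, 13 higher and 10 lower on HFHS, where 80.5% of all genes did (48.2% higher, 32.3% lower). The median fold was 1.41 against 1.71 over all genes. There Ifi27l2a had 1740 counts on HFHS and 3088 on SD, a fold of 0.469. In CD4 T cells of ob/ob mice against wild type, 29 of 38 differed, 24 higher and 5 lower, where 85.8% of all genes did (57.3% higher, 28.5% lower). The median fold was 6.07 against 2.48 over all genes, but the wild-type library held only 220336 counts and more Treg RNA (1434 CPM of Treg genes against 362), and many of these folds are bounds against 0. With more than 20 reads in both libraries 5 of 13 differed, 3 higher and 2 lower, where 1046 of all 1644 genes did, 316 higher and 730 lower. The median fold was then 1.10 against 0.604 over all genes, whereas size factors over that pair of libraries alone gave 12.3 against 5.17. In ob/ob Tregs 14 of 18 differed, 5 higher and 9 lower, where 78.3% of all genes did, 23.5% higher and 54.8% lower (median fold 0.447 against 0.394). Scaling by CPM turned this to 7 higher and 4 lower of 17 (1.24 against 1.04), where 1890 of all 5444 genes were higher and 1634 lower. That last pair is not a clean comparison, as the ob/ob library held 99925 counts and the wild-type library 87.4 CPM of T-cell genes against 34470 CPM of microglial genes.

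The elements through which interferon acts were more frequent in promoters of these genes than in all promoters. In windows from 250 bases before to 50 after the start of transcription, the ISRE pattern GAAANNGAAA, on either strand, was found in 20 of the 34 genes with an entry (58.8%) and in 3.99% of 27025 genes. The GAS pattern TTCNNNGAA, the same on both strands, was found in 11 of 34 (32.4%) and in 9.55% of all genes. Both patterns occurred in 7 of 34 genes (Eif2ak2, Oas1a, Bst2, Gbp5, Gbp7, Igtp and Tgtp1), 20.6% against 0.540%. The ISRE pattern was in 13 of 26 type I genes and 7 of 8 GTPases, and GAS in 7 and 4 of them. The genes without an entry were Dhx58, Zbp1, Oas2, Usp18, Mx1, Mx2, Parp9, Parp14, Ifi27l2a, Rtp4, Gbp4 and Iigp1.

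Of the genes that differed between strains in rest-brain Tconv, Bst2, Ifit1, Ifit3, Isg15, Rsad2, Slfn8, Stat2 and Gbp2 carried an ISRE, and Oasl1, Oasl2, Ifit2, Slfn2, Xaf1 and Ifi44 did not. The sequences are those of the RefSeq-annotated GRCm38.p6 genome, written in the direction of transcription with the pattern in capitals. That genome is of C57BL/6J, so Balb/c alleles were not read here. In Bst2 (chr8:71537562-71537621, minus strand) the ISRE ends 115 bases before the start, next to a GAS, and a second overlapping copy of the ISRE lies 6 bases upstream of it.

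Bst2: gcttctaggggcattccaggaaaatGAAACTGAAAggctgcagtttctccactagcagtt

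In Isg15 (chr4:156200850-156200909, minus strand) the pattern occurs in 3 overlapping copies, the nearest ending 57 bases before the start.

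Isg15: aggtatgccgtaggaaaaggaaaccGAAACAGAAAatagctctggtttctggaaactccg

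Ifit1 (chr19:34640779-34640838, plus strand, 76 bases before the start) and Ifit3 (chr19:34583382-34583441, plus strand, 113 bases) each have a pair of ISREs in the reverse orientation. For Ifit3 the distance is to a start inside the annotated gene, whose first base is 34583119.

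Ifit1: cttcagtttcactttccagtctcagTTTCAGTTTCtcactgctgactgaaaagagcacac

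Ifit3: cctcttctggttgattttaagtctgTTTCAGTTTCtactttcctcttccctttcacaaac

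Rsad2 (chr12:26456538-26456597, minus strand, 111 bases before the start), Stat2 (chr10:128270251-128270310, plus strand, 213 bases) and Gbp2 (chr3:142620579-142620638, plus strand, 50 bases) carry 1 each, also reversed.

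Rsad2: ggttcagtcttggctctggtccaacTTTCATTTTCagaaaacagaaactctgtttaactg

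Stat2: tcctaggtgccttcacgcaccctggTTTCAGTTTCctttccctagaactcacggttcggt

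Gbp2: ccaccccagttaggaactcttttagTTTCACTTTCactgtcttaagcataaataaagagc

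In the GTPase Igtp (chr11:58199497-58199555, plus strand) the ISRE ends 25 bases before the start, 2 bases downstream of a GAS (ttctaggaa).

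Igtp: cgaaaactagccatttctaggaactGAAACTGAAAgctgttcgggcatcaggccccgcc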

How the data were processed

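RNA of pooled, sorted T cells was sequenced in 67 libraries. For the pilot the authors prepared SMARTer and Nextera libraries, read them single-end, aligned them to mm10 with BWA-mem and deposited HTSeq read counts. For the larger experiment the authors read SMARTer mRNA libraries paired-end, ran nf-core/rnaseq and deposited Salmon estimated counts and Salmon TPM, a value scaled by length and depth, per transcript. Versions are not given in the labels.

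Of 35034 transcript names, 34652 (98.9%) were matched to RefSeq genes and summed to 24530 features, 5525 of them with more than 1 name; the pilot table held 24421 symbols. Estimated counts were rounded for the tests. Depth per library was 11340063 to 28187008 counts in rest-brain Tconv, 8938477 to 24985589 in rest-brain Tregs, 13196689 to 20538309 in hypothalamic Tconv and 1724149 to 38482277 in hypothalamic Tregs. In the pilot 4.30 to 67.3% of reads named no gene and 0.391 to 17.1% lay on genes. mm10 is the C57BL/6J genome, so Balb/c reads may map less well, which was not tested. Mx1 and Mx2 are annotated there as transcribed pseudogenes.

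The count filter asked for over 10 counts in a number of libraries equal to the size of a fit's smallest group. Genes passing it were fitted with edgeR 4.0.16 (TMM scaling, quasi-likelihood F test, limma 3.58.1, R 4.3.3) with strain and diet as covariates, and Benjamini-Hochberg adjustment over all genes tested and a threshold of 0.05. Standard errors are the log2 fold change over the root of F. Python 3.11.15, numpy 2.4.6, scipy 1.17.1, pandas 2.3.3 and matplotlib 3.10.9 made the other values. CPM (counts per library total) and log2 fold changes (after TMM scaling) can differ. Alternatives were DESeq2 1.42.0 (Wald test), DESeq2 size factors in edgeR, filterByExpr, no count filter, pool as a block (using only pools with libraries on both sides), each library left out in turn, and removal of a pair of hypothalamic Treg libraries. Comparisons of cell type, of region and of strain share libraries. Pool labels recur across tissues and cell types and were taken to mean the same mice, which the labels do not state; residual correlations of libraries sharing a pool were checked and ran from -0.0704 to 0.0462. Scores are means of log2(CPM + 1) and were not tested. Code was tested on simulated data.

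Pilot counts were scaled by size factors from 786 genes; genes needed more than 20 normalized reads in a library, folds over 2 or under 0.5 were counted, and a 0 was bounded against 3 counts. Intervals are 95%. Promoters were read 250 bases before to 50 after RefSeq starts.

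The genes and lists were chosen with earlier results of these data known. In a comparison with calls the called genes are named (up to 20 by size of change), otherwise the 3 of smallest p; from the lists of pathway genes, other GTPases and other interferon targets, up to 5 called genes, and Irf7, Irf9, Ifnar1, Ifnar2, Ifngr1, Ifngr2 and Ifng always; for levels the 10 of highest TPM. Some items are not reported here. All 46 genes passed the filter in every fit of both strains except in hypothalamic Tregs (41). No columns were left unused (0).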

Additional observations from a re-analysis of the deposited data

Results flagged for a closer look

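Of 24 group scores tested for a library far from the others, about 1 in 20 is flagged by chance, and 3 were flagged. The GTPase score was 9.43 in hypothalamic Tregs of Balb/c SD pool 42_46, above the rest of its group. The type I score was 1.84 in hypothalamic Tregs of C57Bl/6J SD pool 62_66, below the rest. The GTPase score was 7.36 in rest-brain Tconv of C57Bl/6J SD pool 01_05, below the rest.

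The step from Tconv to Treg differed between regions for Ifi27l2a (log2 1.48) and Oasl1 (-10.23). The strain difference in Tconv differed between regions for Bst2 (1.65), Dhx58 (2.27), Gbp4 (0.90), Ifit2 (1.64), Oasl1 (8.21), Stat2 (1.40), Usp18 (1.60) and Zbp1 (-0.84). The strain difference in rest brain differed between cell types for Bst2 (1.69), Gbp4 (1.11) and Ifi27l2a (-1.33).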

How the results depend on the processing

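With DESeq2 the number of called genes went from 3 to 14 for Treg against Tconv in the hypothalamus, from 7 to 11 between regions in Tconv, from 1 to 7 between regions in Tregs, from 0 to 3 between strains in rest-brain Tregs and from 3 to 6 for strain by cell type. For diet DESeq2 called 1 in rest-brain Tconv of Balb/c, 1 in rest-brain Tregs, 5 in rest-brain Tregs of Balb/c, and for strain by diet 2 in rest-brain Tconv and 4 in rest-brain Tregs, each from 0. DESeq2 size factors in edgeR gave 5 for cell type in the hypothalamus and 2 between regions in Tregs. Without the count filter the count was 1 for diet in rest-brain Tconv of Balb/c, 1 for strain by diet in rest-brain Tconv and 1 for diet in hypothalamic Tregs of Balb/c. The cause of these shifts was not tested.

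With pool as a block, pairing libraries that share a pool label, taken to be the same mice, and dropping pools without a partner, 4 genes were called for cell type in rest brain (from 8), 14 in the hypothalamus (from 3), 2 between regions in Tconv (from 7) and 0 in Tregs (from 1). The block was fitted for these 4 comparisons only. Without the pair of unusual libraries, a choice made after seeing the data as were both interactions with strain, 3 genes were called between regions in Tregs.

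Each library left out in turn gave 5 to 8 calls for cell type in rest brain, 3 to 4 in the hypothalamus, 6 to 10 between regions in Tconv, 1 to 2 in Tregs, 14 to 19 between strains in rest-brain Tconv, 1 to 2 in hypothalamic Tconv, 2 to 3 for cell type by tissue, 5 to 10 for strain by tissue and 1 to 5 for strain by cell type. Diet gave 0 to 5 in rest-brain Tregs of Balb/c, strain by diet 0 to 1 in rest-brain Tconv, and all other diet results and strain in Tregs 0 to 0. For cell type by tissue only the 30 Treg libraries were left out; the 29 of Tconv were not, because of limits on running.

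The 5 for cell type in rest brain came without Tconv C57Bl/6J HFHS 38_42, Tconv Balb/c HFHS 15_21, Treg C57Bl/6J HFHS 77_80 or Treg Balb/c SD 37_41. The 2 between regions in Tregs came without hypothalamic C57Bl/6J SD 11_15. The 1 between strains in hypothalamic Tconv came without C57Bl/6J SD 43_47 or 67_66, C57Bl/6J HFHS 33_37 or 77_80, Balb/c HFHS 16_20, 15_21 or 26_31, or Balb/c SD 37_41, 32_36, 42_46 or 06_10. For strain by tissue, 5 came without hypothalamic C57Bl/6J SD 67_66. For strain by cell type, 1 came without Tconv C57Bl/6J HFHS 38_42, and 5 without Tconv C57Bl/6J HFHS 77_80 or 33_37, Tconv Balb/c SD 42_46, Treg C57Bl/6J HFHS 38_42, 77_80 or 33_37, Treg Balb/c HFHS 26_31 or 15_21, or Treg C57Bl/6J SD 62_66 or 67_71. The 1 for strain by diet came without C57Bl/6J HFHS 38_42. The 5 for diet came without SD 37_41, which left 1 SD library assumed to vary like the other group. Isg15 lost its strain call without C57Bl/6J HFHS 38_42 (log2 -0.72) or Balb/c SD 32_36 (-0.87), Dhx58 its strain by tissue call without rest-brain Balb/c HFHS 47_25 (2.15) or hypothalamic Balb/c HFHS 16_20 (1.79), and Gbp4 its strain by cell type call without Tconv C57Bl/6J HFHS 38_42 (0.98).

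In the pilot, asking for more than 20 reads in both libraries left fewer genes to compare. For diet, 14 of 26 differed in CD4 T cells (from 22 of 34) and 8 of 15 in Tregs (from 23 of 30). For ob/ob, 5 of 13 differed in CD4 T cells (from 29 of 38) and 2 of 5 in Tregs (from 14 of 18). Of all genes in the same order, 1509 of 3843, 976 of 1978, 1046 of 1644 and 899 of 1391 differed. Of the pilot folds of called genes, CPM scaling moved 55 of 88 and size factors over each pair of libraries 40.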
